A study of Mus musculus with 6 samples.

Results

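Cytochrome oxidase, complex IV of the respiratory chain, has subunits that mice encode by pairs of genes, one expressed in most tissues and one more restricted. The 9 genes described here are Cox4i1, Cox4i2, Cox6a1, Cox6a2, Cox7a1, Cox7a2, Cox7a2l, Cox8a and Cox8b, taken by symbol out of the 20295 genes of the deposited count table because they encode the isoforms of subunits 4, 6a, 7a and 8. All 9 passed the filter on low counts, as did 11732 genes in all. RNA was sequenced from adipocytes grown out of stromal-vascular cells in 6 libraries, 2 for each of 3 depots: BAT (brown fat), iWAT (white fat of the inguinal depot) and eWAT (white fat of the epididymal depot). The donors of all groups were male NMRI mice aged 4 to 5 weeks with no stated genetic change, and the brown fat was combined from the interscapular, cervical and axillary pads. Every culture was kept in newborn calf serum (10%) with insulin (30 nM) and rosiglitazone (1 µM), which activates the adipogenic regulator Pparg, was harvested 8 days after plating and was used if more than 50% of its cells had differentiated, so no group is free of the drug or of undifferentiated cells. Nothing in the labels states that replicate libraries were separate cultures or animals, so the p-values below measure the spread between these libraries, which may be technical.

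Cytochrome oxidase passes electrons from cytochrome c to oxygen and pumps protons across the inner mitochondrial membrane. Its catalytic core is encoded by the mitochondrial genome, and the smaller nuclear-encoded subunits surround it and modify its activity, assembly and joining with other complexes. Cox7a1, Cox6a2 and Cox8b encode the heart and skeletal muscle isoforms of their subunits, and Cox7a1 and Cox8b are also widely used as markers of brown fat, where the respiratory chain runs to produce heat through Ucp1. Cox4i2 encodes an isoform known from lung and induced by low oxygen, and Cox7a2l encodes a 7a relative that takes part in joining complexes III and IV into supercomplexes. The partners Cox4i1, Cox6a1, Cox7a2 and Cox8a are the ubiquitous isoforms.

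The promoters of the 2 pairs in which both partners were well expressed are shown for how differently they are built. RefSeq entries were found for 6 of the 9 genes (build GRCm38.p6, 250 bases before and 50 after the start, 5′ to 3′ on the gene's strand). Capitals mark E-boxes (CANNTG, held by 72.3% of the 32851 promoters in the table), CCAAT boxes (CCAAT, 37.4%), GC boxes (GGGCGG, 35.7%), ETS cores (CCGGAAG, 8.86%) and TATA boxes (TATAAA, 13.6%), each searched on both strands.
Cox7a1, chr7:30183921-30184220, plus strand: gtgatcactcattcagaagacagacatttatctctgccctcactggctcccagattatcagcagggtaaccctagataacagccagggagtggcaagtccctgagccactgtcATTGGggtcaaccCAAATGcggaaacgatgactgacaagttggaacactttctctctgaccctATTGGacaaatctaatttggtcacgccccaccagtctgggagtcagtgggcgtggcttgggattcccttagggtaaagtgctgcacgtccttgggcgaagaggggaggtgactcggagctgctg
Cox7a2, chr9:79759804-79760103, minus strand: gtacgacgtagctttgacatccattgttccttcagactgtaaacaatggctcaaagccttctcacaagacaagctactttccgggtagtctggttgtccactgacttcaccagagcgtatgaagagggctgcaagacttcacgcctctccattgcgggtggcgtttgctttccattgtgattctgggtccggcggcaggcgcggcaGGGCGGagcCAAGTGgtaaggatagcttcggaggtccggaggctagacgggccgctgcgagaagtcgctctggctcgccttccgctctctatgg
Cox8b, chr7:140900397-140900696, minus strand: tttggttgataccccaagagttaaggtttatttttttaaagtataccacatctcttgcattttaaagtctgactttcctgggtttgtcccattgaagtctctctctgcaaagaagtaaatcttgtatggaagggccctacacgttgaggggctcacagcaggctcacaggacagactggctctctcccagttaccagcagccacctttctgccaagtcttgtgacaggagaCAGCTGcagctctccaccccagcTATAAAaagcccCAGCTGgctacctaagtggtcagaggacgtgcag
Cox8a, chr19:7217567-7217866, minus strand: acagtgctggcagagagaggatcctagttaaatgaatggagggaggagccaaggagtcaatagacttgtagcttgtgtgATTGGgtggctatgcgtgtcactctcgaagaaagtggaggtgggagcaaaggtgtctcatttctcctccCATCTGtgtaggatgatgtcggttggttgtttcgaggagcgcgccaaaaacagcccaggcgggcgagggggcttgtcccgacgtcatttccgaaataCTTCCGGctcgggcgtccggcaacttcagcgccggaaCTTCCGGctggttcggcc
The ubiquitous isoforms had more CpG dinucleotides in this window, 20 for Cox7a2 and 19 for Cox8a, than the restricted ones, with 7 for Cox7a1, which is the median over all promoters, and 2 for Cox8b. Their GC content was 53.0% for Cox7a1 and 48.3% for Cox8b, against 56.7% for Cox7a2 and 56.0% for Cox8a (median 52.7%). Cox8b was the only one of the 4 with TATAAA, at base 255 of the window, which lies 4 bases past the annotated start rather than before it. Cox8b also held E-boxes at base 232, before the start, and at base 267, after it. Cox7a1 held CCAAT on the minus strand at bases 114 and 177, and Cox8a held the ETS core on the minus strand at bases 246 and 283. The MEF2 core (CTA and TAG with 4 free bases between, in 3.69% of promoters), the ERR half-site (AAGGTCA, 4.72%), the direct repeat of AGGTCA spaced by 1 base (0.0396%), the NRF1 palindrome (0.971%) and TGGGAA (25.6%) matched none of these 4 windows, and ACGTG, the core of the hypoxia response element (19.6%), occurred in those of Cox7a1 and Cox8b. These matches are letters in a sequence, and no binding was measured here.

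The libraries held 2889038 to 4807449 counts, and 3 counts corresponded to 0.634 to 1.15 CPM, the unit of counts scaled to a common library size used below (with TMM factors). In edgeR's quasi-likelihood test over the 11732 genes (Benjamini-Hochberg adjusted p below 0.05), BAT exceeded eWAT in 318 genes and fell short of it in 440, exceeded iWAT in 17 and fell short of it in 105, and none passed between iWAT and eWAT, where 1096 had an unadjusted p below 0.05 and DESeq2 called 301. Ucp1 and Cidea, markers of brown adipocytes, followed the depot labels. Ucp1 stood at 4924 and 9294 CPM in BAT, 1115 and 995 in iWAT and 59.6 and 62.9 in eWAT, and Cidea at 582 and 930, 102 and 24.1, and 2.10 and 4.84 CPM in the same order. Markers of differentiated adipocytes summed to 32353 to 42973 CPM in BAT, 26971 to 28279 in iWAT and 24646 to 28918 in eWAT, and none of the 7 passed the test in any comparison. Markers of preadipocytes and fibroblasts summed to 2799 to 3765 CPM in BAT, 19253 to 20616 in iWAT and 16944 to 18578 in eWAT, and macrophage markers to 93.7 to 428, 185 to 636 and 2061 to 4675 CPM. Of 8 tested genes in each list, 6 of the former and 5 of the latter were called lower in BAT than in eWAT (background 6.46% in either direction). Between BAT and iWAT, 6 of the former were lower and none of the latter (background 1.04%). The part of these cells in the differences below was not tested. In such bulk RNA, fewer cells of a type and less RNA per cell cannot be told apart.

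**Figure D1:**
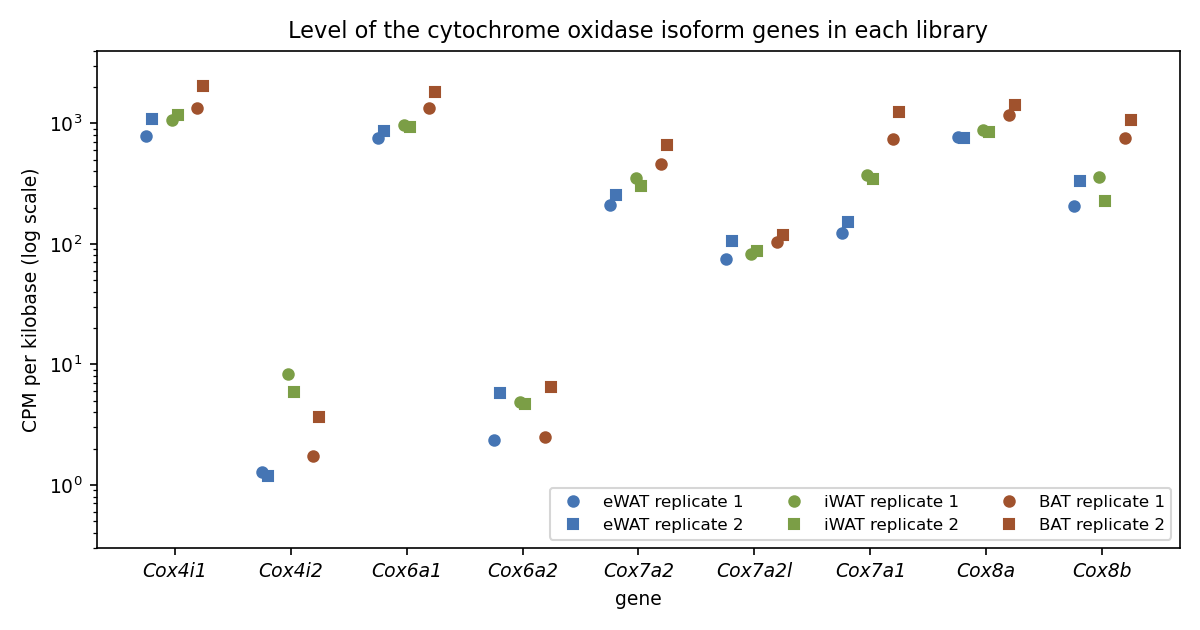
Level of each isoform gene in the 6 libraries, in CPM per kilobase of counted transcript length on a log scale (circles, replicate 1, squares, replicate 2, colours, depots). Cox4i1, Cox6a1 and Cox8a lie highest, Cox4i2 and Cox6a2 lie below 10 in every library, and Cox7a1 spans the widest range between depots among the 7 well-expressed genes.

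Per kilobase of transcript, the ubiquitous isoforms Cox4i1, Cox6a1 and Cox8a were near the top of all 20295 genes, tested or not, in each depot. Their mean levels ranked 16, 17 and 23 in BAT, 23, 31 and 34 in iWAT and 31, 36 and 41 in eWAT. Cox7a1 ranked 33 in BAT, 129 in iWAT and 436 in eWAT, and Cox8b ranked 43, 175 and 169. Cox7a2 ranked 91, 149 and 209, and Cox7a2l ranked 658, 806 and 717. Cox4i2 and Cox6a2 ranked far below the other members among the 20295 genes. Cox4i2 stood at rank 9213 in BAT, 7016 in iWAT and 11135 in eWAT, and Cox6a2 at 8025, 8188 and 8796. Thus in BAT cultures Cox7a1 and Cox8b sat among the most abundant transcripts, next to the ubiquitous subunits, while the other muscle-type isoform, Cox6a2, did not.

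Between BAT and eWAT, 3 of the 9 genes were higher in BAT, Cox7a1, Cox7a2 and Cox8b, and none was lower (edgeR, adjusted p below 0.05), where 6.46% of all tested genes passed in either direction and 2.71% were higher. The median log2 difference of the 9 was 0.97, against -0.033 over all tested genes. No member passed between BAT and iWAT (background 1.04%), although 6 had an unadjusted p below 0.05, and DESeq2 called 2. No member passed between iWAT and eWAT (background 0%), where 2 had an unadjusted p below 0.05 and DESeq2 called 1. The count of 3 rests on single libraries: it was 0 without BAT replicate 2 and without either eWAT replicate, 1 without either iWAT replicate and 4 without BAT replicate 1. These 3 comparisons share libraries and are not independent of each other.

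**Figure D2:**
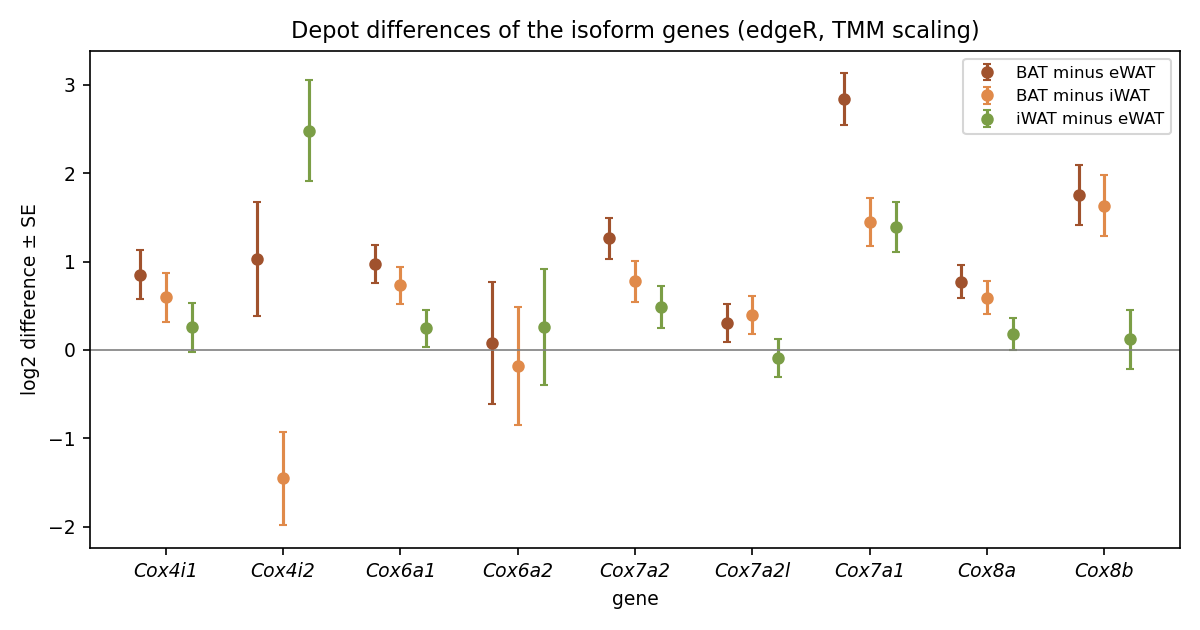
Log2 difference of each gene between depots with its standard error (edgeR, TMM scaling, n = 2 libraries per depot). Cox7a1 has the largest BAT minus eWAT difference, Cox8b differs between BAT and both white depots with iWAT minus eWAT near 0, and Cox4i2 alone lies below 0 for BAT minus iWAT by more than 1.

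Cox7a1 (NM_009944, mm9 chr7, 30969190 to 30971049, plus strand) showed a step at each depot. Its level was 269 and 451 CPM in BAT, 137 and 126 in iWAT and 45.4 and 55.2 in eWAT. Both BAT libraries were above both iWAT libraries, and both of those above both eWAT libraries. In edgeR's quasi-likelihood test the log2 difference was 2.84 ± 0.29 (SE) for BAT minus eWAT, with an adjusted p of 0.0149. It was 1.45 ± 0.27 for BAT minus iWAT (adjusted p = 0.0865) and 1.39 ± 0.28 for iWAT minus eWAT (adjusted p = 0.156) in the same edgeR fit, neither of which passed. The call against eWAT was lost without eWAT replicate 1 (adjusted p = 0.0612), without eWAT replicate 2 (0.0573) and without BAT replicate 2 (0.05), all by edgeR with differences of 2.42 to 2.98.

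Its ubiquitous partner Cox7a2 (NM_009945, mm9 chr9, 79603048 to 79607660, minus strand) followed the same order with smaller steps. It stood at 347 and 496 CPM in BAT, 265 and 228 in iWAT and 160 and 192 in eWAT, again with no overlap between depots. The log2 difference was 1.26 ± 0.24 for BAT minus eWAT (edgeR adjusted p = 0.0372), 0.78 ± 0.23 for BAT minus iWAT (edgeR adjusted p = 0.191) and 0.49 ± 0.23 for iWAT minus eWAT (edgeR adjusted p = 0.65). Only the first passed, and it was lost when either iWAT replicate, either eWAT replicate or BAT replicate 2 was left out, with adjusted p-values of 0.0709 to 0.19 by edgeR.

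The ratio of the 2 transcripts inside each library does not depend on sequencing depth or on scaling between libraries. For each Cox7a2 count there were 0.775 and 0.909 Cox7a1 counts in BAT, 0.519 and 0.554 in iWAT and 0.285 and 0.287 in eWAT. As a share of the counts of both genes, Cox7a1 made up 43.7% (95% Clopper-Pearson interval 41.9 to 45.5) and 47.6% (45.6 to 49.6) in BAT, 34.2% (31.9 to 36.5) and 35.7% (33.1 to 38.2) in iWAT and 22.2% (19.5 to 25.1) and 22.3% (19.6 to 25.2) in eWAT. These intervals cover counting error only, and none of them overlapped between depots. Cox7a1 has the shorter counted transcript, 366 against 754 bases, so per kilobase the ratio was 1.73 ± 0.20 (SD, n = 2) in BAT, 1.11 ± 0.05 in iWAT and 0.589 ± 0.004 in eWAT. On that scale Cox7a1 exceeded Cox7a2 in BAT and iWAT and lay below it in eWAT.

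Each ratio was tested in edgeR with the partner's count as the size of each library, which treats that count as known, in 15 tests over 5 pairs and 3 comparisons. The Cox7a1 to Cox7a2 ratio was 2.94-fold higher in BAT than in eWAT (log2 difference 1.56 ± 0.28, adjusted p = 0.00393 by edgeR). In that fit 69.3% of all genes were called in either direction, nearly all of them lower relative to Cox7a2, and 0.622% were called higher, so the adjustment is lenient there. It was 1.57-fold higher in BAT than in iWAT (edgeR adjusted p = 0.121, with 6.59% of genes called) and 1.88-fold higher in iWAT than in eWAT (edgeR adjusted p = 0.178, 0.869% called), and these did not pass. The BAT to eWAT difference passed in all 12 alternatives run. With 1 library left out its log2 values ran from 1.44 to 1.67. The largest value, 1.77, came from the alternative that replaced Cox7a2 by the sum of ubiquitous subunits described below, and so is not a value of this ratio. Over all 90 arrangements of the 6 libraries among the depots, the exact permutation p for a difference among the 3 depots was 0.0667, the smallest that 2 libraries per depot can give.

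**Figure D3:**
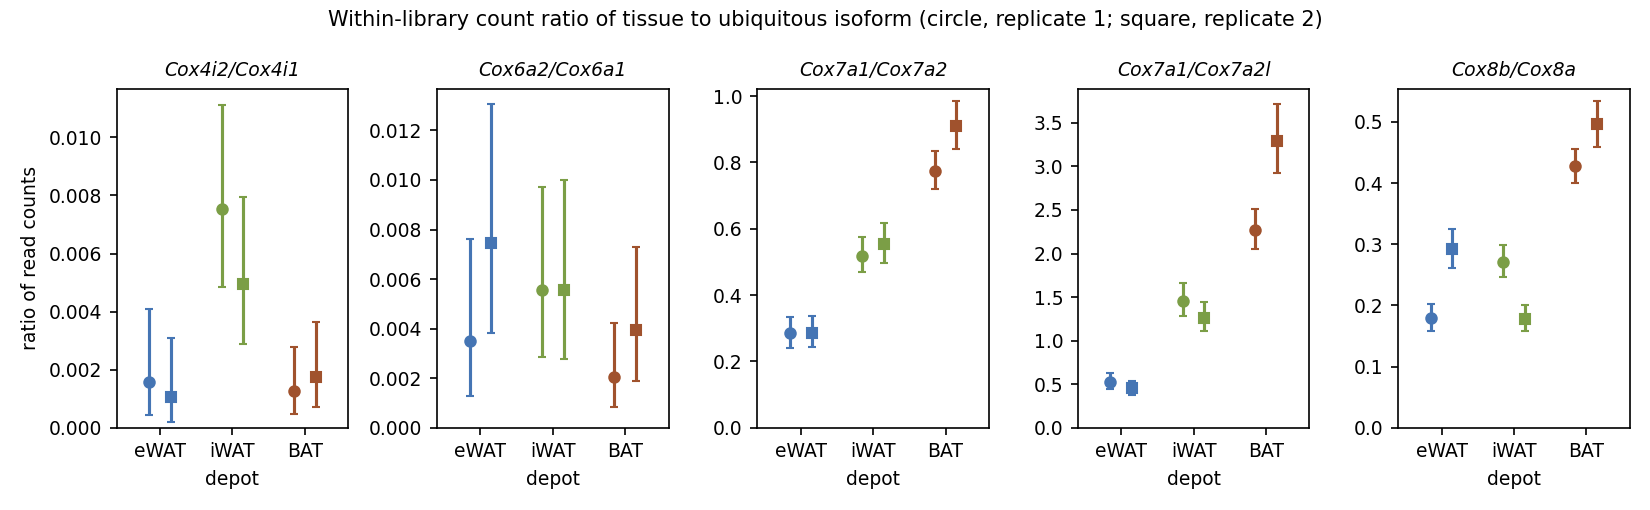
Count ratio of each restricted isoform to its ubiquitous partner in each library (circle, replicate 1, square, replicate 2), with 95% Clopper-Pearson intervals for counting error, on linear axes from 0 that differ between panels. The Cox7a1 ratios rise from eWAT through iWAT to BAT, the Cox8b to Cox8a ratio is higher in BAT with iWAT and eWAT intermingled, and the Cox4i2 to Cox4i1 ratio is highest in iWAT at values below 0.01.

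The third 7a gene, Cox7a2l (NM_001159529, mm9 chr17, 83901257 to 83913673, minus strand), was the steadiest of the well-expressed members. It stood at 119 and 137 CPM in BAT, 94.1 and 99.8 in iWAT and 85.7 and 121 in eWAT, and BAT and eWAT overlapped. Its log2 differences were 0.30 ± 0.21, 0.40 ± 0.21 and -0.09 ± 0.21 for BAT minus eWAT, BAT minus iWAT and iWAT minus eWAT (edgeR adjusted p = 0.425, 0.406 and 0.993). The count ratio of Cox7a1 to Cox7a2l was therefore wider apart between depots than that to Cox7a2. It was 2.27 and 3.30 in BAT, 1.46 and 1.26 in iWAT and 0.530 and 0.455 in eWAT, with no overlap between depots. BAT exceeded eWAT 5.65-fold (log2 difference 2.50 ± 0.29, edgeR adjusted p = 0.00668, with 5.11% of genes called in that fit and 0.767% called higher), and only leaving out eWAT replicate 1 lost this call (2.61, edgeR adjusted p = 0.0696). The log2 difference was 1.03 ± 0.28 between BAT and iWAT (edgeR adjusted p = 0.135, 1.59% of genes called) and 1.47 ± 0.28 between iWAT and eWAT (edgeR adjusted p = 0.127, 0.0597% called), and the exact permutation p over depots was again 0.0667.

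**Figure D4:**
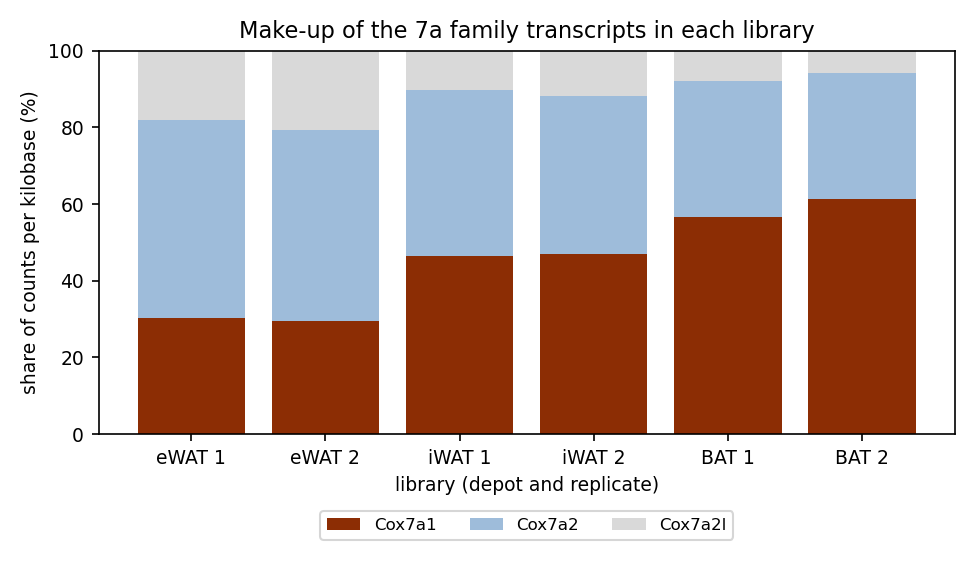
Share of each of the 3 subunit 7a genes in their summed counts per kilobase, in percent, for each library (stacked bars from 0 to 100). Cox7a1 takes 29.5% to 30.2% in eWAT, 46.4% to 47.0% in iWAT and 56.6% to 61.3% in BAT.

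Taken as one family per kilobase, the 7a transcripts differed in their make-up between depots in the same order. Cox7a1 made up 56.6% and 61.3% in BAT, 46.4% and 47.0% in iWAT and 30.2% and 29.5% in eWAT. Cox7a2 made up 35.5% and 32.7% in BAT, 43.4% and 41.2% in iWAT and 51.6% and 49.8% in eWAT, and Cox7a2l made up 7.94% and 5.93%, 10.1% and 11.8%, and 18.2% and 20.6%. Cox7a1 was thus the most abundant 7a transcript in both BAT and both iWAT libraries, and Cox7a2 in both eWAT libraries.

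Cox8b (NM_007751, mm9 chr7, 148084841 to 148086345, minus strand), a gene that is a pseudogene in humans, was high in BAT without the intermediate step in iWAT. It stood at 274 and 385 CPM in BAT, 130 and 82.2 in iWAT and 74.8 and 121 in eWAT. Both BAT libraries lay above the other 4, and iWAT and eWAT overlapped. The log2 difference was 1.75 ± 0.34 for BAT minus eWAT (edgeR adjusted p = 0.0406), 1.63 ± 0.34 for BAT minus iWAT (edgeR adjusted p = 0.107) and 0.12 ± 0.34 for iWAT minus eWAT (edgeR adjusted p = 0.994). The call against eWAT was lost without BAT replicate 2, either eWAT replicate or either iWAT replicate, with edgeR adjusted p-values of 0.0632 to 0.178.

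The ubiquitous partner Cox8a (NM_007750, mm9 chr19, 7289648 to 7292106, minus strand) stood at 642 and 777 CPM in BAT, 480 and 460 in iWAT and 417 and 414 in eWAT. The depots did not overlap, with narrow steps. Its log2 differences were 0.77 ± 0.18, 0.59 ± 0.18 and 0.18 ± 0.18 (BAT minus eWAT, BAT minus iWAT, iWAT minus eWAT, edgeR adjusted p = 0.0603, 0.197 and 0.962). For each Cox8a count there were 0.428 and 0.496 Cox8b counts in BAT, 0.271 and 0.179 in iWAT and 0.180 and 0.292 in eWAT. As a share of both genes this was 29.9% (28.6 to 31.3) and 33.1% (31.5 to 34.9) in BAT, 21.3% (19.7 to 23.0) and 15.2% (13.7 to 16.7) in iWAT and 15.2% (13.7 to 16.8) and 22.6% (20.7 to 24.5) in eWAT. The 2 libraries of each white depot differed from each other beyond counting error, and BAT lay above all 4. Per kilobase the ratio stayed below 1 everywhere, at 0.69 ± 0.07 (SD, n = 2) in BAT, 0.34 ± 0.10 in iWAT and 0.35 ± 0.12 in eWAT, so Cox8a was the more abundant transcript in every library.

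Relative to Cox8a, Cox8b was 1.96-fold higher in BAT than in eWAT (log2 difference 0.97 ± 0.31, edgeR adjusted p = 0.0442), in a fit in which 41.6% of genes were called and 1.17% were higher. This call was lost in 7 of 12 alternatives, among them the fits without either BAT replicate, without eWAT replicate 1 and without either iWAT replicate (edgeR adjusted p = 0.0536 to 0.182). Against iWAT it was 2.05-fold higher (edgeR adjusted p = 0.0707, with 8.49% of genes called), and between iWAT and eWAT the log2 difference was -0.065 ± 0.31 (edgeR adjusted p = 0.971, 0% called). The exact permutation p over the 3 depots was 0.133. Whether the Cox7a1 and Cox8b ratios differed in their step from eWAT to iWAT was tested as a difference of the 2 log2 ratios, a test chosen after the values were seen. That difference was 0.97 ± 0.75 (edgeR adjusted p = 0.948, 1.79% of genes called), so a different pattern of the 2 pairs was not shown. For BAT minus eWAT it was 0.51 ± 0.75 (edgeR adjusted p = 0.505, 85.7% called) and for BAT minus iWAT -0.46 ± 0.74 (edgeR adjusted p = 0.545, 48.2% called).

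Cox4i2 (NM_053091, mm9 chr2, 152579909 to 152590773, plus strand) was scarce in every library, and highest in iWAT rather than BAT. Its counts were 6 and 7 in BAT, 25 and 17 in iWAT and 4 and 3 in eWAT, or 1.27 and 2.68, 6.01 and 4.27, and 0.932 and 0.853 CPM. Both iWAT libraries lay above the other 4, and the eWAT values were at or close to the 3 counts taken as the limit of a count of 0. The log2 difference was 2.48 ± 0.57 for iWAT minus eWAT (edgeR adjusted p = 0.19), -1.45 ± 0.53 for BAT minus iWAT (edgeR adjusted p = 0.254) and 1.03 ± 0.65 for BAT minus eWAT (edgeR adjusted p = 0.373), and none passed. Its genomic span shares 6306 of 10865 bases with the antisense gene Bcl2l1, introns included. No 36-base stretch of the Cox4i2 transcript occurs, on either strand, in an annotated transcript of another gene, so spliced reads of the 2 genes differ. The strandedness of the counting is not stated, and reads of unspliced Bcl2l1 RNA across Cox4i2 exons would not be told apart from Cox4i2. Bcl2l1 was lowest where Cox4i2 was highest, at 14.7 and 14.8 CPM in iWAT, 16.9 and 22.9 in BAT and 34.7 and 20.5 in eWAT.

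The ubiquitous partner Cox4i1 (NM_009941, mm9 chr8, 123192125 to 123198109, plus strand) had the highest mean level per kilobase of the 9 genes in each depot. It stood at 997 and 1518 CPM in BAT, 800 and 864 in iWAT and 586 and 807 in eWAT. BAT lay above the other 4 libraries, and iWAT and eWAT overlapped. Its log2 differences were 0.85 ± 0.28, 0.60 ± 0.28 and 0.26 ± 0.28 for BAT minus eWAT, BAT minus iWAT and iWAT minus eWAT (edgeR adjusted p = 0.124, 0.35 and 0.969). Cox4i2 made up 0.127% (0.0466 to 0.276) and 0.176% (0.0708 to 0.362) of the pair's counts in BAT, 0.746% (0.484 to 1.10) and 0.492% (0.287 to 0.787) in iWAT and 0.159% (0.0433 to 0.406) and 0.106% (0.0218 to 0.308) in eWAT. The log2 difference of the ratio was 2.21 ± 0.64 for iWAT minus eWAT (edgeR adjusted p = 0.367), -2.02 ± 0.60 for BAT minus iWAT (edgeR adjusted p = 0.197) and 0.19 ± 0.70 for BAT minus eWAT (edgeR adjusted p = 0.825). The background was 0.00852%, 0.818% and 8.93% of genes called in those fits, and the exact permutation p over depots was 0.133.

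Set against the 7a pair, the subunit 4 pair had a BAT minus iWAT difference of the opposite sign. The difference of the 2 log2 ratios, again a test chosen after the values were seen, was -2.67 ± 0.68 for BAT minus iWAT and did not pass (edgeR adjusted p = 0.0503, with 6.06% of genes called). Among 11 alternatives it passed in 8, missed the threshold without BAT replicate 2 (edgeR adjusted p = 0.167) and without iWAT replicate 1 (0.249), and got no adjusted p from DESeq2. For BAT minus eWAT it was -1.33 ± 0.79 (edgeR adjusted p = 0.13, 94.7% called), and for iWAT minus eWAT 1.33 ± 0.73 (edgeR adjusted p = 0.127, 0.503% called).

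Cox6a2 (NM_009943, mm9 chr7, 135348949 to 135349880, minus strand), the striated-muscle isoform of subunit 6a, was barely detected and showed no order of depots. Its counts were 7 and 10 in BAT, 12 and 11 in iWAT and 6 and 12 in eWAT, or 1.48 and 3.82, 2.89 and 2.77, and 1.40 and 3.41 CPM. All 3 depots overlapped. The log2 differences of 0.08 ± 0.69, -0.18 ± 0.67 and 0.26 ± 0.66 for BAT minus eWAT, BAT minus iWAT and iWAT minus eWAT did not pass (edgeR adjusted p = 0.96, 0.925 and 0.994), and at this depth differences of about the size of these errors were not detectable. Its span shares 69 of 932 bases with the antisense gene Itgad. Of the 36-base stretches of the Cox6a2 transcript, 5.43% occur also in Itgad. Since the strandedness of the counting is not stated, Itgad reads there could have been counted as Cox6a2. Itgad had 158 and 33 counts in BAT, 128 and 47 in iWAT and 16 and 2 in eWAT. Cox6a2 did not follow that pattern, and the part of such reads in its counts was not tested.

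Its partner Cox6a1 (NM_007748, mm9 chr5, 115795663 to 115798964, minus strand) stood at 720 and 967 CPM in BAT, 520 and 497 in iWAT and 401 and 458 in eWAT, with no overlap between depots. The log2 difference for BAT minus eWAT was 0.97 ± 0.21 and narrowly missed the threshold (edgeR adjusted p = 0.0517). For BAT minus iWAT the value was 0.73 ± 0.21 (edgeR adjusted p = 0.183) and for iWAT minus eWAT 0.24 ± 0.21 (edgeR adjusted p = 0.928). Cox6a2 made up 0.205% (0.0825 to 0.422) and 0.394% (0.189 to 0.723) of the pair's counts in BAT, 0.552% (0.286 to 0.963) and 0.553% (0.277 to 0.988) in iWAT and 0.347% (0.128 to 0.754) and 0.740% (0.383 to 1.29) in eWAT. The log2 difference of the ratio was -0.87 ± 0.63, -0.90 ± 0.62 and 0.03 ± 0.62 in the same order of comparisons (edgeR adjusted p = 0.253, 0.273 and 0.987, with 52%, 8.64% and 0.00852% of genes called), and the exact permutation p over depots was 0.4. The muscle-type share of subunit 6a was thus under 1% in every library, against 22.2% to 47.6% for 7a and 15.2% to 33.1% for 8.

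Most of the other nuclear-encoded subunits were also higher in BAT than in eWAT. Of 7 such subunit genes outside the members (Cox5a, Cox5b, Cox6b1, Cox6c, Cox7b, Cox7c and Ndufa4), 5 were higher in BAT than in eWAT and none lower. Of all tested genes, 2.71% were higher. Their median log2 difference was 1.16, against -0.033 over all tested genes. None passed between BAT and iWAT (median 0.76) or iWAT and eWAT (median 0.39). Cox7b, with a log2 difference of 1.41 ± 0.19 (edgeR adjusted p = 0.0226), Cox5a with 1.27 ± 0.19 (0.0264) and Cox6c with 1.32 ± 0.20 (0.0284) had the smallest p-values for BAT minus eWAT. These calls were lost without BAT replicate 2, either eWAT replicate or iWAT replicate 2, and those of Cox5a and Cox6c also without iWAT replicate 1 (edgeR adjusted p = 0.0556 to 0.141). Cox7c is at 1.92 to 8.03 CPM in this table, and 54.3% of the 36-base stretches of its transcript occur also in other genes, 5 of them pseudogenes, so its value is uncertain. The same share was 42.6% for Cox5a and 26.3% for Cox6c, whose counts depend to that extent on how such reads were assigned. Of the 27 tested genes for assembly and stability of the complex, 4 were higher in BAT than in eWAT and none lower (median 0.79, background 2.71% higher). Among them were Fastkd1, which binds mitochondrial RNA, at 1.38 ± 0.23 (edgeR adjusted p = 0.0313), Higd2a, an assembly factor, at 1.08 ± 0.20 (0.0368), and the copper chaperone Cox17 at 1.51 ± 0.30 (0.0417). All 3 calls were lost without BAT replicate 2, either eWAT replicate or either iWAT replicate (edgeR adjusted p = 0.0637 to 0.177). None of the 27 passed between BAT and iWAT (median 0.53) or iWAT and eWAT (median 0.23). The testis-type isoforms were at 0 counts in all libraries for Cox8c and at 1 count in all for Cox7b2, and Cox6b2, at 2.77 to 13.4 CPM, did not pass. Subunits encoded by the mitochondrial genome were not analysed here.

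Because several subunits of the complex were higher in BAT, the members were also set against the sum of 10 ubiquitous nuclear subunits (Cox4i1, Cox5a, Cox5b, Cox6a1, Cox6b1, Cox6c, Cox7a2, Cox7b, Cox7c and Cox8a). That sum was 4977 and 6669 CPM in BAT, 3575 and 3448 in iWAT and 2622 and 3001 in eWAT. Cox7a1 came to 5.41% and 6.77% of it in BAT, 3.84% and 3.66% in iWAT and 1.73% and 1.84% in eWAT, a log2 difference of 1.77 ± 0.21 for BAT minus eWAT (edgeR adjusted p = 0.00592, with 0.818% of genes called higher and 60% in either direction). This call was kept in all 11 alternatives run, at an adjusted p of at most 0.028 (edgeR, limma or DESeq2). Against iWAT the log2 difference was 0.70 ± 0.21 (edgeR adjusted p = 0.0649, 8.87% of genes called) and passed without BAT replicate 1 (0.85, edgeR adjusted p = 0.0398) and with DESeq2 (adjusted p = 0.0356), and between iWAT and eWAT it was 1.07 ± 0.21 (edgeR adjusted p = 0.138, 0.00852% called), passing with DESeq2 (adjusted p = 0.00424) and with no filter on low counts (edgeR adjusted p = 0.0148). Cox8b came to 5.51% and 5.78% in BAT, 3.64% and 2.38% in iWAT and 2.85% and 4.03% in eWAT, with a log2 difference of 0.71 ± 0.28 for BAT minus eWAT (edgeR adjusted p = 0.0617) that did not pass, though it did with no filter on low counts (edgeR adjusted p = 0.038). Cox7a2l was 2.38% and 2.05% in BAT, 2.63% and 2.89% in iWAT and 3.27% and 4.04% in eWAT, and so fell by 0.72 on the log2 scale between eWAT and BAT (SE 0.21, edgeR adjusted p = 0.028), where 59.1% of genes were called lower. The Cox7a2l call was lost without BAT replicate 2, either eWAT replicate or either iWAT replicate (edgeR adjusted p = 0.0536 to 0.144). Cox4i1, Cox6a1, Cox7a2 and Cox8a, which are in the sum, differed from it by log2 values between -0.27 and 0.21 in all 3 comparisons, and none passed.

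Other gene pairs with a muscle-type and a common isoform were read in the same way. The count ratio of Cpt1b to Cpt1a, the muscle and liver forms of carnitine palmitoyltransferase 1, which brings fatty acids into mitochondria, was 1.15 and 1.81 in BAT, 0.527 and 1.04 in iWAT and 0.327 and 0.600 in eWAT. It was higher in BAT than in eWAT by 1.68 ± 0.53 on the log2 scale (edgeR adjusted p = 0.0289, where 6.51% of genes were called), a call lost without either BAT replicate or either eWAT replicate (edgeR adjusted p = 0.112 to 0.827), and did not pass for BAT minus iWAT (0.92 ± 0.52, edgeR adjusted p = 0.813, 2.04% called) or iWAT minus eWAT (0.76 ± 0.52, edgeR adjusted p = 0.94, 3% called). The counted lengths of Cpt1b and Cpt1a were 150 and 4301 bases, so their count ratio does not show which transcript was more abundant. Per kilobase, Cpt1b stood at 162 to 548 CPM over the 6 libraries and Cpt1a at 9.12 to 17.2. The ratio of Slc25a4 to Slc25a5, the muscle and the general adenine nucleotide carriers of the inner membrane, was 3.31 and 4.00 in BAT, 3.14 and 2.94 in iWAT and 3.86 and 3.05 in eWAT. It overlapped between BAT and eWAT and its log2 difference there was 0.08 ± 0.23 (edgeR adjusted p = 0.786, 29.7% of genes called). The difference was 0.26 ± 0.23 for BAT minus iWAT (edgeR adjusted p = 0.534, 1.52% called) and -0.19 ± 0.23 for iWAT minus eWAT (edgeR adjusted p = 0.635, 0% called). Ckmt2 and Ckmt1, the mitochondrial creatine kinases, had too few counts for a ratio.

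Ndufa4l2, an oxygen-regulated relative of the complex IV subunit Ndufa4, was highest in iWAT, as Cox4i2 was. Its count ratio to Ndufa4 was 0.0178 and 0.0183 in BAT, 0.104 and 0.127 in iWAT and 0.00494 and 0.0332 in eWAT, so both iWAT libraries were above the other 4. The log2 difference was -2.67 ± 0.63 for BAT minus iWAT (edgeR adjusted p = 0.0401, where 11.9% of genes were called) and 2.64 ± 0.65 for iWAT minus eWAT (edgeR adjusted p = 0.121, 0.367% called), and -0.03 ± 0.68 for BAT minus eWAT (edgeR adjusted p = 0.968, 52.3% called). The first call was lost without either BAT replicate or either iWAT replicate (edgeR adjusted p = 0.0965 to 0.168). Without eWAT replicate 2, the higher eWAT library, the log2 difference was 4.52 for iWAT minus eWAT and 1.85 for BAT minus eWAT, and both passed (edgeR adjusted p = 0.0246 and 0.0331). Of 13 tested genes known to be induced by low oxygen, 6 were higher in BAT than in eWAT and none lower (median 1.32), where 2.71% of all tested genes were higher. None of the 13 passed between BAT and iWAT (median 0.37) or iWAT and eWAT (median 0.91). The glycolytic enzyme Pgk1 had the smallest p-value of this list for BAT minus eWAT, at 1.68 ± 0.21 (edgeR adjusted p = 0.0209), followed by the mitophagy receptor Bnip3 at 1.69 ± 0.33 (0.0402) and Pdk1, which restrains pyruvate oxidation, at 1.52 ± 0.30 (0.0403). These calls were lost without BAT replicate 2, either eWAT replicate or iWAT replicate 2, and those of Bnip3 and Pdk1 also without iWAT replicate 1 (edgeR adjusted p = 0.0535 to 0.178). The 14 listed genes summed to 3297 to 4242 CPM in BAT, 3261 to 3438 in iWAT and 1658 to 2266 in eWAT, so BAT and iWAT overlapped in the sum where Cox4i2 and Ndufa4l2 were higher in iWAT. Ldha was the largest part of that sum, at 1133 and 1393 CPM in BAT and 1189 and 1200 in iWAT. For BAT minus iWAT the smallest p-values of the list belonged to Ndufa4l2 and to P4ha1, a collagen prolyl hydroxylase, at -0.71 ± 0.22 (edgeR adjusted p = 0.195). Slc2a1, at -0.74 ± 0.28 (edgeR adjusted p = 0.265), and Adm, at -1.32 ± 0.45 (0.23), also had both BAT libraries below both iWAT libraries. Of the 13 tested genes, 9 had a positive difference there.

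Since 3 of the restricted isoforms belong to striated muscle, muscle markers were read in the same libraries. The 23 skeletal muscle markers summed to 63.1 to 80.3 CPM in BAT, 31.3 to 43.5 in iWAT and 31.6 to 61.5 in eWAT, so BAT was above the other 4 libraries, and 7 of the 23 were abundant enough to test. Between BAT and eWAT, 4 of the 7 had both BAT libraries above both eWAT libraries (median log2 difference 1.33), and none of these passed. The giant sarcomere protein gene Ttn stood at 24.9 and 19.1 CPM in BAT, 5.77 and 8.80 in iWAT and 7.92 and 3.98 in eWAT (BAT minus eWAT 1.87 ± 0.42, edgeR adjusted p = 0.0527). The fast myosin gene Myh1 had 21 and 11 counts in BAT, 1 and 6 in iWAT and 1 and 0 in eWAT (edgeR adjusted p = 0.0532), and Neb, another sarcomere gene, differed by 1.33 ± 0.48 (edgeR adjusted p = 0.149). Ttn, Myh1 and myoglobin (Mb) were thus higher in both BAT libraries than in the other 4, as Cox7a1 and Cox8b were. Des had both BAT libraries below both eWAT libraries (BAT minus eWAT -1.08 ± 0.50, edgeR adjusted p = 0.241). Acta1 overlapped between those depots (-0.08 ± 0.89, edgeR adjusted p = 0.968). Actn3 was lower in BAT than in eWAT (-2.24 ± 0.47, edgeR adjusted p = 0.0467), a call lost when any of the 6 libraries was left out (edgeR adjusted p = 0.07 to 0.172). Ckm, muscle creatine kinase, had 1 count in BAT replicate 1 and 0 in the other 5 libraries, and Mb had 25 and 20 counts in BAT, 0 and 7 in iWAT and 0 in both eWAT libraries (BAT against eWAT, edgeR adjusted p = 0.0703). Cardiac muscle markers summed to 1.14 to 4.02 CPM over all libraries, with Myl7 at 0. Among pericyte markers, which accompany Cox4i2 in some tissues, the sum was 273 to 400 CPM in BAT, 451 to 463 in iWAT and 496 to 560 in eWAT, and Pdgfrb and Mcam made up most of it. Of the 7 pericyte markers tested, 3 had a positive iWAT minus eWAT difference (median log2 difference -0.12), so most did not go with Cox4i2 there. For BAT minus iWAT, where Cox4i2 was lower in BAT, 1 of the 7 had a positive difference (median log2 difference -0.69). None of the 7 passed in that comparison. Abcc9 of this list followed the order of Cox4i2, at 26.7 and 36.2 CPM in iWAT, 6.97 and 17.2 in BAT and 7.22 and 13.4 in eWAT (iWAT minus eWAT 1.62 ± 0.50, edgeR adjusted p = 0.317, not passing). The mean of Rgs5 was also highest in iWAT, at 9.37 CPM against 5.54 in BAT and 4.00 in eWAT, with iWAT and BAT overlapping. Pdgfrb was lower in BAT than in eWAT (-1.23 ± 0.23, edgeR adjusted p = 0.0373), a call lost without BAT replicate 2, either eWAT replicate or either iWAT replicate (edgeR adjusted p = 0.0731 to 0.165). Smooth muscle markers ran from 166 to 1757 CPM with overlapping depots. Endothelial markers summed to 94.1 to 192 CPM in BAT, 158 to 175 in iWAT and 52.6 to 118 in eWAT, and so lay higher in iWAT than in eWAT, as Cox4i2 did. No gene of either list was called in any comparison. The part of these cells in the isoform differences was not tested.

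The genes whose log2 CPM followed a member most closely over the 6 libraries were found by Pearson's r among 10636 genes, as a description only, since libraries of one depot resemble each other. For Cox7a1 these were Tiparp (0.999), Rgag1 (0.996) and Mettl17 (0.996), and 289 genes had r above 0.95. Tiparp, a poly-ADP-ribose polymerase family member, stood at 385 and 478 CPM in BAT, 275 and 277 in iWAT and 161 and 179 in eWAT. For Cox8b they were Psma3 (0.997), Yme1l1 (0.997), a protease of the mitochondrial inner membrane, and Alyref2 (0.996), with 174 genes above 0.95. The scarce members had fewer close matches, 12 genes above 0.95 for Cox4i2, led by Cela1 (0.991), Toe1 (0.988) and Arntl (0.985), and 16 for Cox6a2, led by S100pbp (0.981), Wbscr27 (0.980) and Sin3b (0.975).

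The authors' deposited table of comparisons, made with another test, called more members. At an adjusted p below 0.05 the authors' deposited table holds 6 of the 9 members between BAT and eWAT (15.6% of its genes), 4 between BAT and iWAT (8.24%) and 2 between the white depots (8.52%). In the authors' deposited table the iWAT minus eWAT calls are Cox7a1, with a log2 fold change of 1.38 and an adjusted p of 7.96e-12, and Cox4i2, with 2.49 and 4.3e-05. The authors' deposited table gives Cox7a1 1.36 and Cox8b 1.61 for BAT minus iWAT, with adjusted p-values of 5.13e-05 and 2.65e-05, and Cox4i2 -1.54 with 0.0248. Its fold changes for these genes lie close to those above, and the 2 analyses differ in their p-values.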

How the data were processed

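RNA of differentiated mouse adipocytes was sequenced in 6 libraries, 2 per depot, after ribosomal depletion and TruSeq library preparation, per the labels' protocols. Reads were aligned with STAR to mm9, per the submitters' processing notes, and for the counting program, its strand setting and its handling of reads with several matches the answer is: not given in the sources used here. A deposited count table gives whole-number read counts and a counted length for 20295 genes. The authors' deposited table of comparisons gives log2 fold changes, log2 CPM per library, a likelihood-ratio score and p-values, and only its fold changes and p-values were read, for the members.

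The members and gene lists were chosen with earlier results of these data known. Members were matched by symbol. The main test was edgeR 4.0.16 (R 4.3.3), glmQLFit and glmQLFTest, two-sided, with TMM scaling, filterByExpr (minimum count 10, minimum total 15), depot as the single factor, all 6 libraries in 1 fit and Benjamini-Hochberg adjustment over 11732 genes, called below 0.05. Library totals were 2889038 to 4807449 counts, with 3 residual degrees of freedom (common biological coefficient of variation 0.251). Standard errors are the log2 difference divided by the square root of F. For a ratio, the same fit took the ubiquitous partner's count as each library's size, and p-values were adjusted over that fit's 11731 genes. Exact permutation tests over libraries used the log2 ratio with 0.5 added to both counts. CPM per kilobase divides by the authors' counted length. Starts in the file are counted from 0 and were shifted by 1. In GENCODE vM21 transcripts, no partner shared a 36-base stretch with its pair, and 20.3% of such stretches of Cox6a1, 20.0% of Cox7a2l and 13.9% of Cox4i1 occur in another gene. The same share was 5.43% for Cox6a2, all in Itgad, and 2.24% for Cox7a2. Named genes were all members, up to 3 per list and comparison with the smallest p, every other isoform pair, the 3 closest genes by Pearson's r (log2 CPM with a prior count of 1, mean of at least 5 CPM in the highest depot) for each restricted isoform, and Ucp1 and Cidea. A few other genes of the lists are named beside these for comparison. Alternatives were DESeq2 1.42.0, limma 3.58.1 (voom), other scalings, no filter on low counts, only the 2 depots compared, a replicate block, each library left out, another denominator and other added counts. The scripts were tested on simulated data.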

Additional observations from a re-analysis of the deposited data

How the results depend on the processing

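The count of genes called for BAT minus eWAT, 758, was 1937 with no filter on low counts, 1370 with DESeq2, 154 with only the 2 depots compared, 2780 with the replicate block and 2 to 820 with 1 library left out. For BAT minus iWAT, 122 became 780, 510 and 1225 with no filter, DESeq2 and the block, 69 with voom and 0 to 94 with 1 library left out. For iWAT minus eWAT, 0 became 557, 301 and 563, 1 with voom, 2 with only the 2 depots compared and 0 to 3 with 1 library left out. Members called were 6 (no filter), 6 (DESeq2), 1 (2 depots), 6 (block) and 0 to 4 (leave-one-out) for BAT minus eWAT, against 3, then 2, 2 and 4 (no filter, DESeq2, block) for BAT minus iWAT, and 1 under each of those 3 between iWAT and eWAT. The added calls were Cox4i1, Cox6a1 and Cox8a for BAT minus eWAT (all 3 settings), Cox7a1 and Cox8b for BAT minus iWAT, with Cox6a1 and Cox7a2 in the block, and Cox7a1 for iWAT minus eWAT.

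Ratio differences (log2) that came to pass were Cox7a1 to Cox7a2l between BAT and iWAT at 1.03 with no filter, 1.03 with DESeq2 and 1.02 with the block, and between iWAT and eWAT at 1.47, 1.47 and 1.47. Cox8b to Cox8a for BAT minus iWAT passed under the same 3 at 1.04, 1.04 and 1.02, and Cox7a1 to Cox7a2 for iWAT minus eWAT with DESeq2 at 0.91. Cox4i2 to Cox4i1 passed only with the replicate block, at -2.01 between BAT and iWAT and 2.20 between iWAT and eWAT. Cox8b to Cox8a for BAT minus eWAT no longer passed with only the 2 depots compared (0.97), with the sum of ubiquitous subunits as denominator (0.71) or in 5 of 6 fits with 1 library left out (0.66 to 1.08), and kept the call without eWAT replicate 2 (1.36). Cox7a1 to Cox7a2l for BAT minus eWAT ran from 2.20 to 2.74 with 1 library left out. Relative to the sum, Cox7a1 for BAT minus iWAT passed with DESeq2 (0.70) and the block (0.69), Cox7a1 for iWAT minus eWAT and Cox8b for BAT minus iWAT with no filter, DESeq2 and the block (1.07 in all, and 0.91 in all), and Cox8b for BAT minus eWAT with no filter and the block (0.71 in both).

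Differences near 0 changed sign, and with 1 exception, named below, did not pass. With 1 library left out, Cox4i2 to Cox4i1 for BAT minus eWAT ran from -0.076 to 0.50, Cox6a2 to Cox6a1 for iWAT minus eWAT from -0.42 to 0.67 (-0.046 with the summed denominator) and Cox8b to Cox8a for iWAT minus eWAT from -0.40 to 0.32. Cox6a2 itself ran from -0.67 to 0.81 for BAT minus eWAT (-0.078 with total counts), -0.91 to 0.43 for BAT minus iWAT and -0.27 to 1.00 for iWAT minus eWAT, Cox7a2l from -0.32 to 0.18 and Cox8b from -0.26 to 0.51 for iWAT minus eWAT. Relative to the sum of ubiquitous subunits, Cox8b for iWAT minus eWAT ran from -0.53 to 0.082. Slc25a4 to Slc25a5 for BAT minus eWAT ran from -0.080 to 0.26 and Ndufa4l2 to Ndufa4 from -0.88 to 1.85, the last passing without eWAT replicate 2 (0.59 with voom, 0.13 with the replicate block). The causes were not tested. The replicate numbers give only 2 pairs per comparison and no label ties them, so the block was not used as a pairing. Deviations of replicate 1 from the depot mean correlated across genes at r = 0.398 (BAT and eWAT), 0.437 (BAT and iWAT) and 0.542 (eWAT and iWAT). Where leaving out a library leaves 1 in a depot, that library is assumed to vary like the others. Depth limits Cox4i2 and Cox6a2, with 3 to 25 counts per library.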
